A study of Rattus norvegicus with 32 samples.

Results

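Pfkfb1 and 8 other liver genes at the control points of glycolysis and gluconeogenesis (Pklr, Pfkl, Pck1, Fbp1, G6pc, Slc2a2, Gpt and Got1) were followed across all groups of the study. They were taken by symbol from the raw count table, where 9 of the 9 listed symbols were found among 17327 gene rows, and 9 of 9 passed the filter on low counts. The study sequenced messenger RNA from livers of Charles River Sprague Dawley rats, under basal conditions, to ask what corticosteroid-binding globulin (CBG) does in the liver. CBG is the plasma carrier of glucocorticoids, made by hepatocytes from Serpina6, and the knockout (KO, Cbg-/-) was made by CRISPR/Cas9 ablation of that gene; the controls were wild type (WT, Cbg+/+). The 32 libraries formed 8 groups of 4 rats: WT and KO females and WT and KO males, each at 30 and at 60 days of age. The deletion is not limited to 1 tissue in the labels, and the labels name neither the founder line nor littermates, feeding state or hour of sampling.

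The liver takes up and releases glucose through the transporter encoded by Slc2a2 (GLUT2), burns it by glycolysis when fed, and makes it from lactate and amino acids by gluconeogenesis when fasted. Opposed enzyme pairs set the direction, and the small signalling sugar fructose 2,6-bisphosphate, which stimulates phosphofructokinase and inhibits fructose 1,6-bisphosphatase, decides between them at one such pair. Pfkfb1 encodes the liver form of the bifunctional enzyme that both makes and removes that sugar. Glucagon, acting through cAMP, and glucocorticoids raise Pck1 and G6pc, while insulin lowers them.

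Of the 9 genes, Pfkfb1 and Pck1 differed most between KO and WT in 60-day females. Their start regions are shown because cAMP and hormones act on Pck1 through a known element. Each window runs from 250 bases before to 50 bases after the start listed by RefSeq on the assembly GRCr8, on the plus strand, and both are written 5′ to 3′. Capitals mark the only match to a searched motif in the windows shown. A window was found for 8 of the 9 genes, and not for Gpt.
Pck1, chr3:182348322-182348621: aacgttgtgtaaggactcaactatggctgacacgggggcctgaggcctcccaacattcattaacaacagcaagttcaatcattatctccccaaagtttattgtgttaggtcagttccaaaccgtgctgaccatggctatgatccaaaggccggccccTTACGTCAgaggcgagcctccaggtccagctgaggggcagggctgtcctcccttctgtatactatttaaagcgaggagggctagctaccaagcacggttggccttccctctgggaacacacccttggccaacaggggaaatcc
Pfkfb1, chrX:22941926-22942225: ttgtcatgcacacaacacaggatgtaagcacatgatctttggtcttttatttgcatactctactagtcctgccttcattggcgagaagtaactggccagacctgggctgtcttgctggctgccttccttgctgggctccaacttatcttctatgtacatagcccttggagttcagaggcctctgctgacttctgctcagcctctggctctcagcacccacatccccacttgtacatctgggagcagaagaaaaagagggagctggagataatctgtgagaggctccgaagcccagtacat

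In the Pck1 window the letters TTACGTCA, the form of the cAMP response element known from this promoter, begin at position -93 from the start. They were found in 0.81% of 33469 promoter windows of the same length, and this form was added to the search after the window had been read. The other motifs searched on both strands were TGACGTCA (cAMP response element, 1.83% of windows), TGTTCT (glucocorticoid receptor half-site, 20.68%), ATTGAT (Onecut core, 8.06%), TTATGTAA (D-box, 0.89%), CACGTG (E-box, 6.42%) and TTCNNNGAA (STAT, 8.87%). In the Pfkfb1 window 0 of the 7 motifs were found. The rat gene has more than one start, and the table lists 1 of them, which need not be the one used in liver.

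The libraries held 12951969 to 21954929 reads on genes. Those of 30-day rats had at least 16806943 and those of 60-day rats at most 17133332, so depth moved with age, and its part in the comparisons of ages was not tested. Serpina6 matched the labels, with group means of 487 to 1148 counts-per-million (CPM, scaled by the trimmed mean of M-values) in WT and 31.8 to 106 CPM in KO livers. The 10 hepatocyte markers were present in each group, summing to 210058 to 302179 CPM per library. Replicate 1 of the 60-day KO females (replicates are numbered in accession order) stood apart: 10 photoreceptor markers summed to 1905 CPM there, against 4.41 to 9.53 CPM in the other 3 libraries of its group. Values without it are given beside many, but not all, of the results on 60-day KO females. For the comparisons of the 9 genes with that group they follow the count of the 9 genes. In whole liver, fewer cells of a type and less RNA per cell cannot be told apart, and CPM is not divided by transcript length, so levels are compared between groups and not between genes.

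Pfkfb1 had the widest range of the 9 genes, a 22.2-fold span between its lowest and highest group mean. In 60-day WT females it was at 10.8, 8.34, 18.9 and 14.5 CPM, and in 60-day KO females at 1.72, 2.71, 0.861 and 2.94 CPM, from 14 to 44 reads. The highest KO female was well below the lowest WT female. The KO females were 6.38-fold lower (-2.67 ± 0.27 log2, SE, 95% interval -3.23 to -2.11, n = 4 per group, edgeR quasi-likelihood test, Benjamini-Hochberg adjusted p = 4.35e-07 over 11002 genes), and -2.61 ± 0.30 without the library that held photoreceptor transcripts (adjusted p = 7.66e-06).

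In males of the same age the groups overlapped. WT males had 31.1, 29.3, 24.9 and 30.6 CPM and KO males 27.8, 29.7, 22.2 and 31.9 CPM, with KO rats at both ends of the combined range. The log2 difference of KO from WT males was -0.05 ± 0.21 (edgeR adjusted p = 0.962), with a 95% interval of -0.48 to 0.37. That interval leaves room for a change in males within its bounds, and does not reach the -2.67 log2 of the females. The difference between the sexes in the effect of the knockout was itself tested and came to 2.62 ± 0.35 log2 (edgeR adjusted p = 0.000371); of 11002 genes, of which 0.136% were called in this interaction, Pfkfb1 ranked 1 by p.

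At 30 days Pfkfb1 in the KO groups could not be separated from WT. WT females had 24.6, 27.0, 25.2 and 24.5 CPM and KO females 18.0, 25.5, 33.9 and 34.1 CPM, the KO rats lying on both sides of the WT range. WT males had 37.7, 45.7, 45.0 and 34.4 CPM and KO males 39.5, 51.9, 46.5 and 45.3 CPM, again overlapping. The differences of KO from WT were 0.14 ± 0.20 log2 in females and 0.17 ± 0.20 log2 in males (edgeR adjusted p = 0.868 and 0.967). In females the knockout effect changed between 30 and 60 days by -2.81 ± 0.34 log2 (edgeR adjusted p = 8.2e-05, rank 1 of 11002 by p, where 2.96% of genes were called); in males the same term was -0.22 ± 0.29 (adjusted p = 1, where 0.00909% of genes were called).

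Seen by age, Pfkfb1 fell in females of both genotypes. WT females dropped from 25.3 ± 1.15 to 13.1 ± 4.59 CPM (mean ± SD, n = 4; -0.95 ± 0.21 log2, edgeR adjusted p = 0.00105), without overlap. KO females dropped from 27.9 ± 7.70 to 2.06 ± 0.957 CPM (-3.76 ± 0.26, adjusted p = 5.67e-11), rank 7 of 11002 by p. WT males went from 40.7 ± 5.56 to 28.97 ± 2.80 CPM without overlap but also without passing the test (-0.49 ± 0.20, adjusted p = 0.0638). That difference did pass with upper-quartile scaling (adjusted p = 0.039), limma-voom (0.0344), the deposited log2 values (0.05, just under the threshold) and a fit to those 8 libraries (0.00717). KO males fell from 45.8 ± 5.08 to 27.9 ± 4.18 CPM (-0.72 ± 0.20, adjusted p = 0.00845), a call that was lost when a score of clock genes was a covariate (-0.44 ± 0.24, adjusted p = 0.194).

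Males had more Pfkfb1 than females at 60 days. The excess was 1.14 ± 0.21 log2 in WT (edgeR adjusted p = 0.000176) and 3.76 ± 0.27 log2 in KO rats (adjusted p = 2.09e-11), and in both genotypes the sexes did not overlap. At 30 days the male values were again all above the female ones (0.69 ± 0.20 in WT and 0.72 ± 0.20 in KO), but neither passed the test (edgeR adjusted p = 0.0766 and 0.0552). In KO rats the sex difference grew with age by 3.04 ± 0.34 log2 (adjusted p = 1.23e-06; 4.69% of all genes called), and in WT rats the same term was 0.45 ± 0.29 (adjusted p = 0.378; 9.00% called). From low to high the group means ran 60-day KO females, 60-day WT females, 30-day WT females, 30-day KO females, 60-day KO males, 60-day WT males, 30-day WT males and 30-day KO males. Of these neighbours, the first 3 groups were separated from each other and the 60-day WT males from the 30-day WT males; each other neighbouring pair overlapped.

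**Figure D1:**
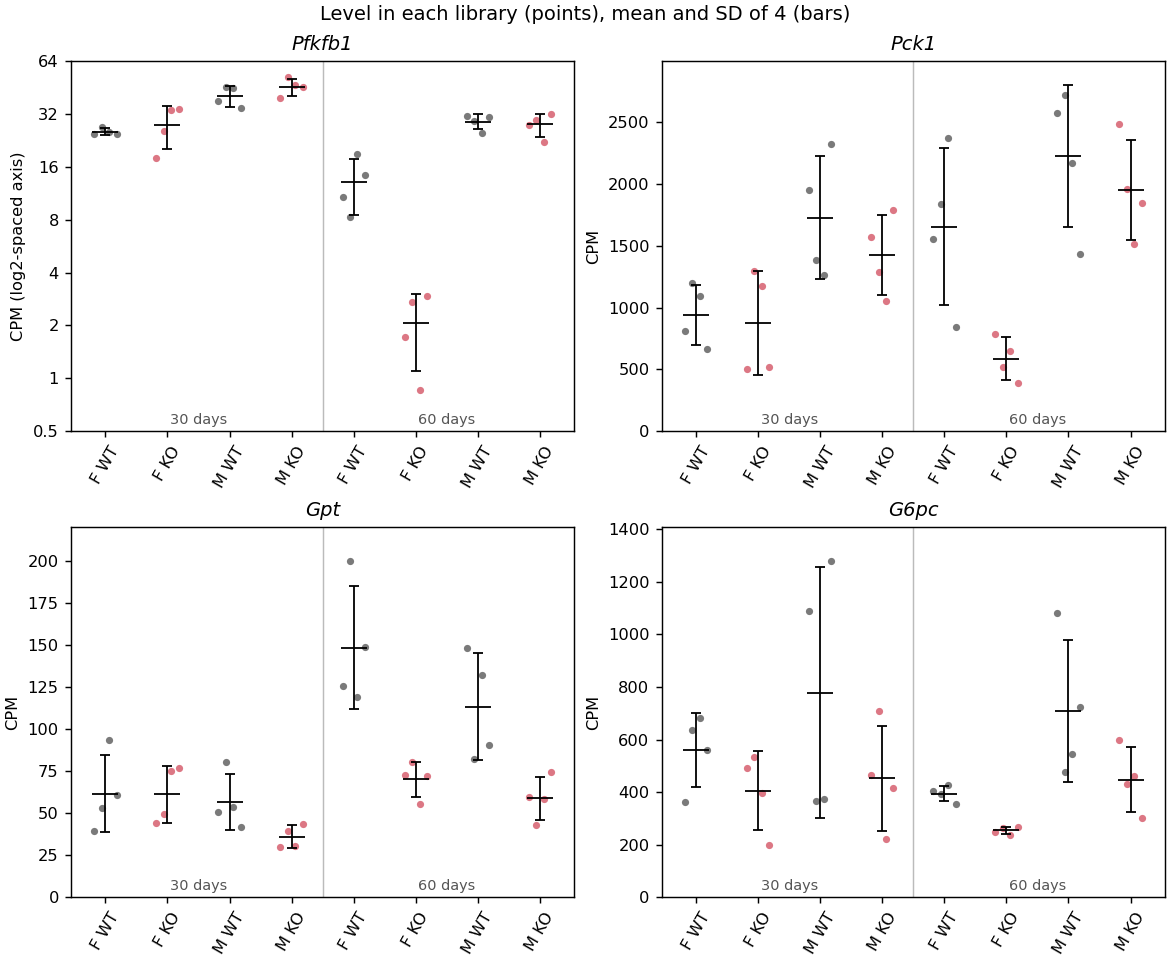
Levels of Pfkfb1, Pck1, Gpt and G6pc in CPM by group (F, females; M, males; WT, wild type; KO, knockout; 30-day rats left of the grey line and 60-day rats right), with 1 point per library and bars for the mean and SD of 4; the Pfkfb1 axis is logarithmic, the others start at 0. The 60-day KO females lie between 0.861 and 2.94 CPM for Pfkfb1, below each other library.

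None of the 3 other isozymes of the bifunctional enzyme passed the test in 60-day females. In 60-day females Pfkfb2, the heart form, was at 10.3 CPM in KO and 8.92 CPM in WT (means; 0.21 ± 0.16 log2, edgeR adjusted p = 0.499). The KO mean held 15.7 CPM in the library with photoreceptor transcripts; without it the mean was 8.53 CPM and the difference turned to -0.06 ± 0.13 (adjusted p = 0.865). Pfkfb3, an inducible form that favours synthesis of the sugar, was at 1.45 and 0.909 CPM (0.67 ± 0.32, adjusted p = 0.229), and Pfkfb4 at 0.965 and 0.968 CPM (-0.00 ± 0.35, adjusted p = 0.999). Pfkfb2 had the opposite sex difference to Pfkfb1 at 60 days, being lower in males by -0.55 ± 0.17 log2 in WT (adjusted p = 0.013) and by -0.66 ± 0.16 in KO rats (adjusted p = 0.00419). Without that library the difference in KO rats shrank to -0.39 ± 0.14 (adjusted p = 0.05, just above the threshold). Between 30 and 60 days Pfkfb4, at a low level, also fell in KO females (-1.13 ± 0.31 log2, edgeR adjusted p = 0.00836). Without that library its fall was -1.10 ± 0.34 (adjusted p = 0.0215). Pfkfb2 (0.08 ± 0.16) and Pfkfb3 (0.36 ± 0.30) did not pass there (adjusted p = 0.765 and 0.44).

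Of the 9 genes, 3 were lower in 60-day KO than WT females (Pfkfb1, Pck1 and Gpt), 0 were higher and 6 did not pass. In this comparison 6.77% of all tested genes were called, and 3.29% of all tested genes were called lower. The 9 genes were chosen with earlier results of these data known, so these shares are a reference and do not test the count. The median of the 9 was -0.21 log2, against 0.01 for all genes. Groups did not overlap for 4 of the 9 (those 3 and G6pc), against 8.43% of all genes. In the other comparisons of KO with WT 0 of 9 were called: 30-day females (0.300% of all genes called), 30-day males (0.0545%) and 60-day males (0.209%). At an unadjusted p under 0.05 the counts there were 0, 3 and 2 of 9, against 10.7%, 5.94% and 10.8% of all genes. With DESeq2 they were 0, 0 and 2 at an adjusted p under 0.05, against 0.838%, 0.237% and 0.965% of the genes to which it gave one. Groups did not overlap for 0, 1 and 2 of the 9 there (7.62%, 6.44% and 4.89% of all genes); the 4 comparisons use different rats. Of the interactions, 0 of 9 were called for sex by genotype at 30 days, where 0.00% of genes were called.

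Without replicate 1 of the 60-day KO females the same 3 genes were called against WT, while the share of all genes called dropped to 3.60%. The other 6 did not pass there: the difference was 0.58 for Pklr, -0.62 for G6pc, -0.16 for Fbp1, -0.19 for Slc2a2, -0.04 for Pfkl and -0.15 log2 for Got1 (edgeR adjusted p = 0.196, 0.495, 0.303, 0.466, 0.858 and 0.787). Against KO males, Pfkfb1 (3.69 ± 0.30), Pck1 (1.91 ± 0.37), Fbp1 (0.26 ± 0.08) and Slc2a2 (0.42 ± 0.13) still passed (adjusted p = 9.42e-10, 0.000525, 0.0205 and 0.0209). Against 30-day KO females only Pfkfb1 passed, as with all libraries (-3.69 ± 0.30, adjusted p = 2.67e-09). Its 3 interactions also passed: sex by genotype at 60 days (2.55 ± 0.37, adjusted p = 0.00297), age by genotype in females (-2.75 ± 0.37, adjusted p = 0.000518) and sex by age in KO rats (2.97 ± 0.36, adjusted p = 1.17e-05).

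**Figure D2:**
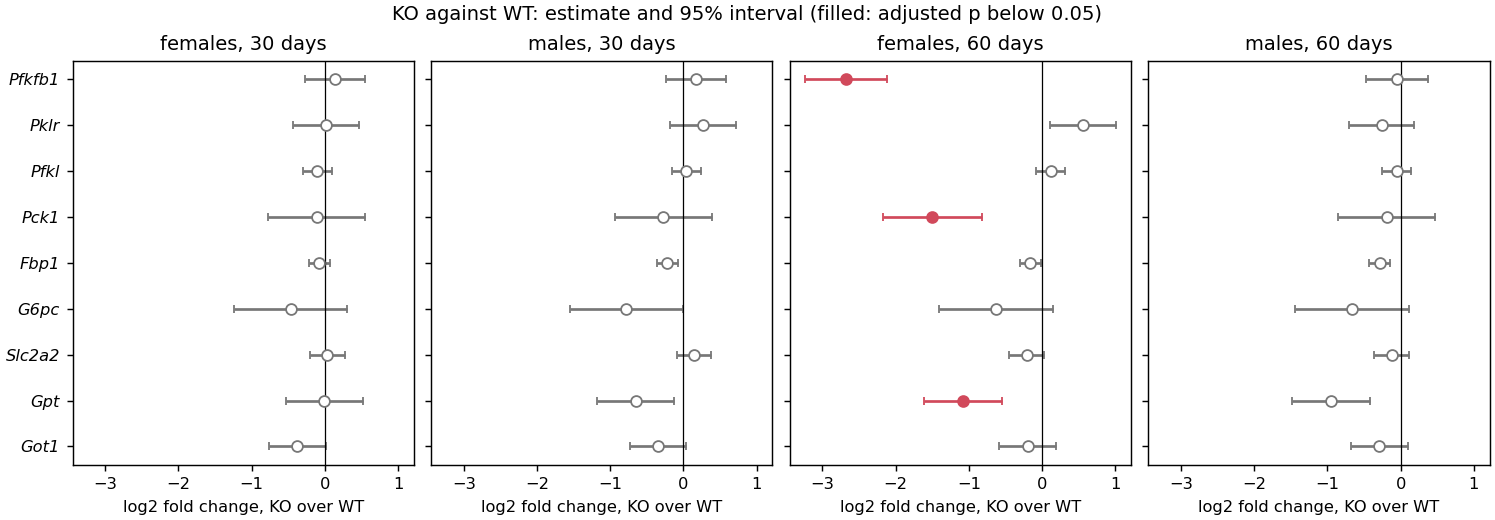
Log2 fold change of KO over WT for the 9 genes (rows) in the 4 combinations of sex and age (panels), with 95% intervals from the edgeR fit; filled red points have an adjusted p below 0.05. Only the panel of 60-day females holds filled points, for Pfkfb1, Pck1 and Gpt, all to the left of 0.

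Pck1 encodes the cytosolic phosphoenolpyruvate carboxykinase that commits oxaloacetate to glucose. Its levels in 60-day WT females were 1557, 1840, 2373 and 847 CPM, and in KO females 788, 517, 653 and 386 CPM. The 4 KO rats were below the 4 WT rats, by a narrow margin at the WT female with 847 CPM. The difference was -1.50 ± 0.33 log2 (2.82-fold lower, 95% interval -2.18 to -0.82, edgeR adjusted p = 0.00675) and -1.67 ± 0.37 without replicate 1 of the KO females (adjusted p = 0.0097). In a fit to those 8 libraries alone the same difference did not pass (-1.49 ± 0.34, adjusted p = 0.11).

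Males of that age overlapped for Pck1. WT males were at 2577, 2723, 2175 and 1434 CPM and KO males at 2486, 1959, 1513 and 1848 CPM (-0.19 ± 0.32 log2, edgeR adjusted p = 0.885). The difference between the sexes in the knockout effect did not pass (1.31 ± 0.46 log2, adjusted p = 0.291), nor did the change of the female effect with age (-1.39 ± 0.46, adjusted p = 0.0931). KO males had 1.74 ± 0.33 log2 more Pck1 than KO females at 60 days (adjusted p = 0.000349, no overlap), while in WT rats the sexes overlapped (0.43 ± 0.32, adjusted p = 0.359). At 30 days Pck1 ran from 668 to 1196 CPM in WT and 504 to 1296 CPM in KO females, and from 1261 to 2322 CPM in WT and 1057 to 1789 CPM in KO males, so that in each sex the KO range lay largely over that of WT.

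G6pc, the catalytic subunit of glucose 6-phosphatase, releases free glucose as the last step of gluconeogenesis. In 60-day females it was at 404, 391, 425 and 355 CPM in WT and 248, 265, 237 and 267 CPM in KO. These 2 groups were tight and did not overlap, yet the difference of -0.63 ± 0.38 log2 did not pass (edgeR adjusted p = 0.358). Its spread was far wider in other groups, with SDs of 477 CPM in 30-day WT males and 270 CPM in 60-day WT males against 14.5 CPM in 60-day KO females, and the test shares 1 spread over groups. In a fit to those 8 libraries alone the same difference passed (-0.63 ± 0.09, adjusted p = 0.0124). The gene was also below WT on average in 30-day females (-0.47), 30-day males (-0.78) and 60-day males (-0.66 log2), none of which passed. It was called in 0 of the 18 comparisons and interactions. Males had more G6pc than females at 60 days without overlap, a difference that passed in smaller fits: adjusted p = 0.0115 in WT and 0.0194 in KO rats with the 16 libraries of that age, and 0.0273 and 0.0119 with the 8 libraries compared.

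Fbp1, the fructose 1,6-bisphosphatase that fructose 2,6-bisphosphate inhibits, varied little, with a 1.46-fold span of group means. In 60-day males it was at 788, 746, 768 and 725 CPM in WT and 652, 640, 585 and 609 CPM in KO, with no overlap. That difference (-0.28 ± 0.07 log2) missed the threshold in edgeR (adjusted p = 0.0963) and passed it in DESeq2 (-0.29 ± 0.07, adjusted p = 0.00606). At 30 days the KO males, at 521 to 578 CPM, were again below the WT males, at 612 to 663 CPM (-0.22 ± 0.07, edgeR adjusted p = 0.46). In females the KO and WT ranges overlapped at each age. Males had more Fbp1 than females at 60 days, by 0.39 ± 0.07 log2 in WT (edgeR adjusted p = 9.67e-05) and 0.26 ± 0.07 in KO rats (adjusted p = 0.00747), both without overlap; in a fit to the 8 KO libraries alone the second missed the threshold (adjusted p = 0.0702).

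On the glycolytic side, Pklr (liver pyruvate kinase, the last step of glycolysis) and Pfkl (the liver subunit of phosphofructokinase) were called in 0 of 18 comparisons. Pklr in 60-day females was at 654, 251, 329 and 252 CPM in WT and 513, 499, 466 and 701 CPM in KO. One WT library, replicate 1, lay among the KO values and the other 3 below them. With it the difference was 0.55 ± 0.22 log2 (edgeR adjusted p = 0.137), and without it 0.97 ± 0.17 (adjusted p = 0.000483). Pfkl was the steadiest of the 9, with a 1.15-fold span. In 60-day KO females it was at 68.9, 43.3, 50.5 and 47.1 CPM, the highest value falling in the library that held photoreceptor transcripts. Its difference from WT was 0.12 ± 0.10 log2 with that library and -0.04 ± 0.08 without it (edgeR adjusted p = 0.858 for the latter).

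**Figure D3:**
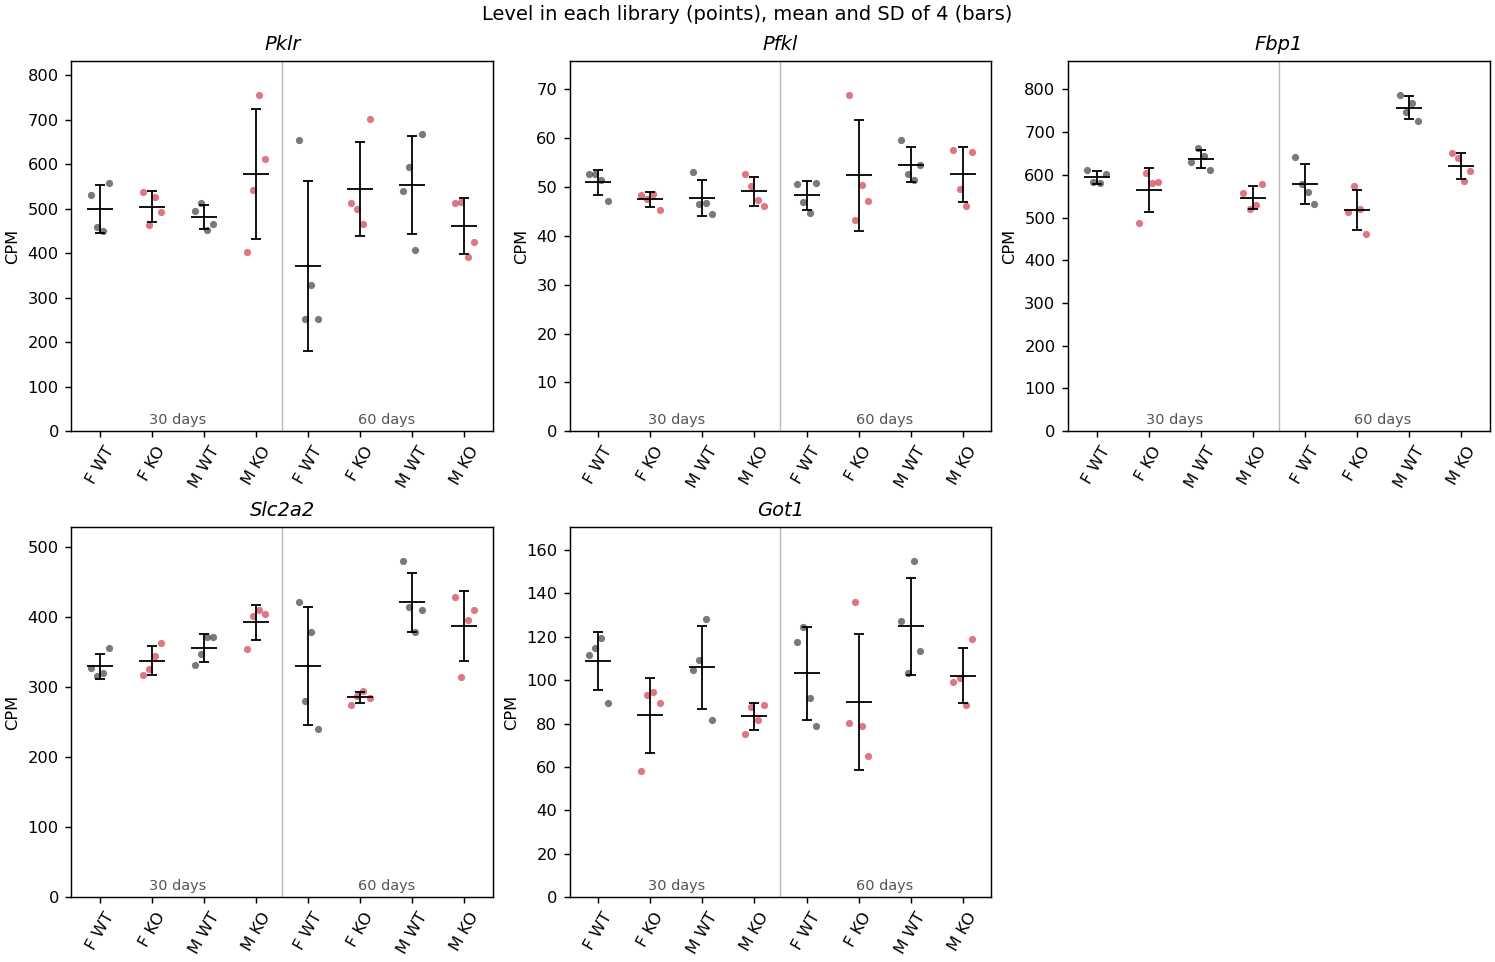
Levels of Pklr, Pfkl, Fbp1, Slc2a2 and Got1 in CPM by group, drawn as for the first 4 genes, with each axis starting at 0. Group means spanned 1.15-fold (Pfkl) to 1.56-fold (Pklr); the 60-day WT males stand above the KO males for Fbp1, and 1 of the 60-day WT females stands above the other 3 for Pklr.

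Slc2a2, the glucose transporter of hepatocytes, was at 421, 280, 379 and 240 CPM in 60-day WT females and 274, 287, 294 and 285 CPM in KO females. The KO rats were close together and the WT rats were spread on both sides of them (-0.21 ± 0.12 log2, edgeR adjusted p = 0.307). KO males exceeded KO females at 60 days by 0.44 ± 0.12 log2 (adjusted p = 0.00636, no overlap). The same sex difference in WT (0.35 ± 0.12, adjusted p = 0.0235, overlapping) was lost without replicate 2 of the WT females (0.28 ± 0.12, adjusted p = 0.1), without their replicate 4 (0.22 ± 0.11, adjusted p = 0.126) and without replicate 1 of the WT males (0.28 ± 0.12, adjusted p = 0.0975). It was also lost in a fit to those 8 libraries (adjusted p = 0.175).

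Gpt and Got1 encode the aminotransferases that pass the carbon of alanine and aspartate into and out of the pathway. Gpt in 60-day females was at 126, 200.1, 119 and 149 CPM in WT and 72.7, 80.5, 55.5 and 72.1 CPM in KO. The highest KO value was below the lowest WT value, and the difference was -1.08 ± 0.26 log2 (2.11-fold lower, edgeR adjusted p = 0.0113; -1.10 ± 0.29 without replicate 1 of the KO females, adjusted p = 0.0332). Without replicate 2 of the WT females it missed the threshold (-0.90 ± 0.27, adjusted p = 0.0545), as it did with the clock score as a covariate (-1.08 ± 0.34, adjusted p = 0.0989).

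In 60-day males Gpt was also lower on average in KO: WT was at 148, 82.4, 132 and 90.6 CPM, and KO at 59.6, 43.0, 58.4 and 74.3 CPM. The male groups did not overlap either, but -0.95 ± 0.26 log2 did not pass in edgeR (adjusted p = 0.145) and did in DESeq2 (-0.95 ± 0.25, adjusted p = 0.0192). The sexes' knockout effects differed by 0.13 ± 0.36 log2 (95% interval -0.61 to 0.88, adjusted p = 0.948). Gpt also rose with age, by 1.27 ± 0.26 in WT females (adjusted p = 0.000395) and 1.00 ± 0.26 in WT males (adjusted p = 0.00388), both without overlap, while KO females showed 0.20 ± 0.26 (adjusted p = 0.642). The change of the female knockout effect with age, -1.07 ± 0.36, did not pass (adjusted p = 0.0986), except without replicate 3 of the 30-day WT females (-1.35 ± 0.35, adjusted p = 0.0357). Got1 was called in 0 of 18, and in 60-day females its WT (79.0 to 124 CPM) and KO (64.9 to 136 CPM) ranges overlapped.

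Counted by comparison, males exceeded females at 60 days for 3 of the 9 genes in WT (Pfkfb1, Fbp1 and Slc2a2; 26.4% of all genes were called, 13.7% higher) and for 4 of 9 in KO rats (those 3 and Pck1; 18.5% called, 9.63% higher), with 0 lower in either. The groups did not overlap for 4 and 5 of the 9, against 22.7% and 18.1% of all genes. At 30 days 0 of 9 differed between the sexes in either genotype (2.07% and 2.24% of all genes called), while 2 of 9 did not overlap in each (9.18% and 12.7% of all genes). These comparisons share rats with those of genotype. Between 30 and 60 days the calls were 2 of 9 in WT females (33.1% of all genes), 2 in WT males (Fbp1 by 0.25 ± 0.07 log2, edgeR adjusted p = 0.00744, and Gpt; 31.5%), 1 in KO females (22.7%) and 3 in KO males (28.4%), shares near or under the background in each. The ages did not overlap for 2, 4, 2 and 2 of the 9 in the same order, against 29.4%, 29.1%, 23.6% and 31.4% of all genes. In KO males the calls of Fbp1 (0.18 ± 0.07, adjusted p = 0.0494) and Gpt (0.71 ± 0.26, adjusted p = 0.0424) were each lost without 6 of the 8 libraries taken singly. For Fbp1 these were replicates 1, 2 and 3 of the 30-day and 1, 2 and 4 of the 60-day KO males, and for Gpt replicates 1, 2 and 3 of the 30-day and 1, 3 and 4 of the 60-day KO males.

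Other genes of glucose metabolism were called in 60-day females at shares to be read against the 6.77% of all genes (3.60% without replicate 1 of the KO females). Of 32 other genes of glycolysis and gluconeogenesis, 1 was higher and 1 lower, or 6.25%, with a median of 0.16 log2 that became 0.00 without that replicate. The lower one was Mdh1, the cytosolic malate dehydrogenase that works beside Pck1, at 285 ± 26.2 CPM in KO and 353 ± 29.8 CPM in WT (SD, n = 4; -0.31 ± 0.08 log2, edgeR adjusted p = 0.0121). The higher one, Aldoc, the brain form of aldolase, was at 20.5 CPM in the library with photoreceptor transcripts and at most 0.738 CPM in the other 3 KO livers. Its 2.76 ± 0.83 log2 (adjusted p = 0.0424) became -0.68 ± 0.46 without that library (adjusted p = 0.49).

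Of 17 genes of glycogen metabolism 0 were called with edgeR (median 0.07 log2). Of 15 genes of the fructose, polyol and pentose phosphate pathways 1 was lower, H6pd, the glucose 6-phosphate dehydrogenase of the endoplasmic reticulum (6.67%; -0.39 ± 0.11, adjusted p = 0.0227). Of 16 genes for the entry of pyruvate into mitochondria and the transport of carboxylic acids, 3 were higher and 0 lower (18.8%; 2 without replicate 1 of the KO females). They were Slc25a11, the oxoglutarate carrier (54.2 ± 1.36 against 42.7 ± 1.76 CPM; 0.34 ± 0.07, adjusted p = 0.00302), Dlat of pyruvate dehydrogenase (0.47 ± 0.13, adjusted p = 0.0264) and Slc25a10, the dicarboxylate carrier (0.28 ± 0.09, adjusted p = 0.0492).

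Partners of the 9 genes at the same steps that are described here did not pass in this comparison. The mitochondrial isozymes Pck2, Gpt2 and Got2 differed by 0.17 ± 0.17, 0.31 ± 0.15 and 0.14 ± 0.06 log2 (edgeR adjusted p = 0.619, 0.219 and 0.205). Slc37a4, which carries glucose 6-phosphate to the phosphatase, differed by -0.21 ± 0.10 (adjusted p = 0.21). Outside these steps, Tat, the tyrosine aminotransferase known as a glucocorticoid target, differed by 0.31 ± 0.30 (adjusted p = 0.612).

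**Figure D4:**
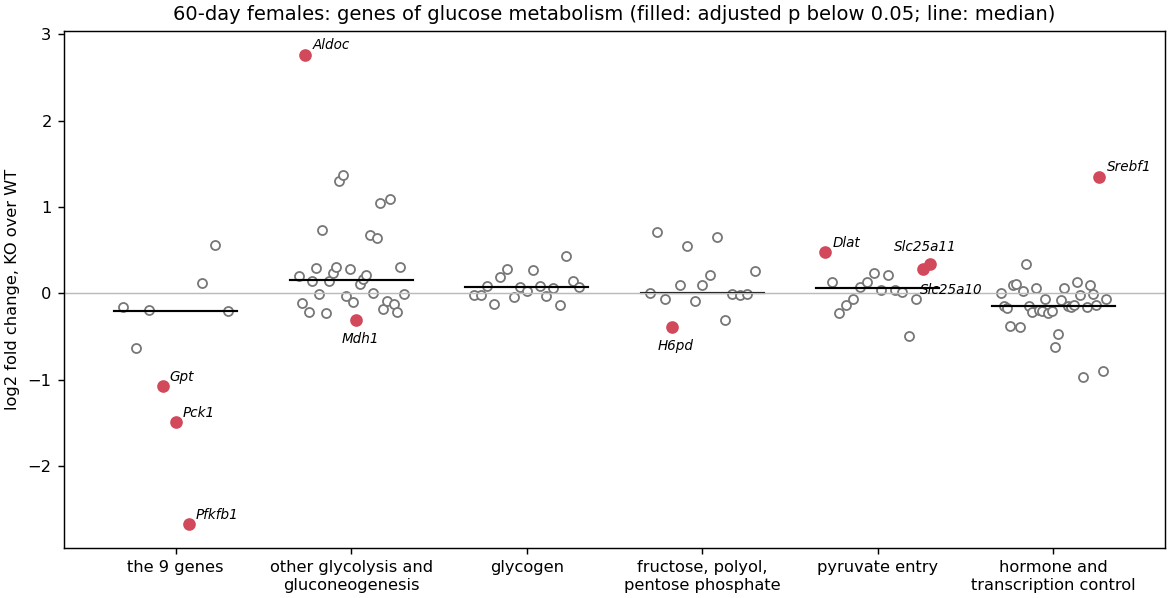
Log2 fold change of KO over WT in 60-day females for each tested gene (points) of the 9 genes and 5 lists of glucose metabolism, with a line at each median; filled red points have an edgeR adjusted p below 0.05 and are named. Pfkfb1, Pck1 and Gpt are the lowest points of the plot, while the medians of the 5 lists lie between -0.14 and 0.16.

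Of 34 hormone and transcription regulators of these genes 1 was called in 60-day females, or 2.94% against 6.77% of all genes. Srebf1, which drives lipogenic genes under insulin, was at 961 ± 104 CPM in KO and 377 ± 169 CPM in WT (1.35 ± 0.21 log2, edgeR adjusted p = 0.000212). In 60-day males, where 0.209% of all genes were called, 1 of the 34 was lower, Cebpb, a factor of the gluconeogenic response (37.4 ± 6.77 against 75.2 ± 6.96 CPM; -1.01 ± 0.17, adjusted p = 0.00792; -0.95 ± 0.18 and 0.0614 without replicate 1 of the KO males). Fgf21, a hormone induced by fasting, was higher in 60-day KO females (1.43 ± 0.43, adjusted p = 0.0397). Of 14 genes induced by feeding, 1 was higher (7.14%), Srebf1 again, with a list median of 0.51 log2. Leaving out 1 library at a time, the calls of Srebf1 and Slc25a11 were kept in 8 of 8 fits and that of Mdh1 in 7 (not without replicate 4 of the WT females, adjusted p = 0.0515). H6pd was lost without replicates 1 or 3 of the WT or replicate 1 of the KO females, and Dlat without replicates 2, 3 or 4 of the WT or replicate 4 of the KO females. Fgf21 was kept only without replicate 1 of the WT or replicate 2 of the KO females, and Slc25a10 only without replicate 1 of the WT females. In the fit to the 8 libraries of 60-day females alone, which called 56 genes in all, none of these list genes that could be tested passed. At 30 days 0 genes of these lists were called between KO and WT in either sex with edgeR.

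Markers of zone, clock and other cell types were examined beside these differences, with 6.77% of all genes called and 3.29% lower. Pericentral hepatocyte markers were lower in 4 of 10 and higher in 0 in 60-day KO females (median -0.65 log2; the count was also 4 without replicate 1), with sums of 5456 to 7830 CPM in WT and 3888 to 6346 CPM in KO, none at 0. Of the 10 periportal markers 2 were higher and 1 lower (0 and 1 without replicate 1), with overlapping sums (9976 to 12701 CPM in WT and 9418 to 10868 CPM in KO). Exocrine pancreas markers, 4 of 8 of them at 0 in WT and in KO, summed to 36.1 to 223 CPM in WT and 8.06 to 50.1 CPM in KO females. Of the 3 tested, 1 was called higher and 1 lower (0 and 0 without replicate 1). Their sums were 6.10 to 20.4 CPM in the 30-day rats and 60-day males. Stellate cell and fibroblast markers summed to 309 to 464 CPM in WT and 475 to 508 CPM in KO females, with 0 of 7 tested called and 1 of 8 at 0. Cholangiocyte markers summed to 14.6 to 16.5 CPM in WT and 16.8 to 20.8 CPM in KO females, with 1 of 5 called (higher) and none at 0, so that neither of these sums overlapped between the groups. The part of these markers in the result was not tested. Of 14 clock genes 4 were higher (Per2, Per3, Dbp and Tef) and 1 lower (4 and 0 without replicate 1). A score of 7 clock genes minus 5 opposed ones averaged -1.65 ± 0.56 in WT and -0.56 ± 0.82 in KO females of 60 days (log2, SD, n = 4). It was -0.89 ± 0.58 in these KO females without replicate 1 (n = 3). The mean score was also higher in KO than WT in 30-day females (-0.91 against -1.69), 30-day males (-0.59 against -1.13) and 60-day males (-1.49 against -1.77). With that score as a covariate, KO differed from WT in 60-day females by -2.99 ± 0.31 for Pfkfb1 (edgeR adjusted p = 1.49e-06) and -1.65 ± 0.41 for Pck1 (adjusted p = 0.0325).

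Across the 8 group means, the genes whose log2 CPM was most like that of Pfkfb1 were Osbpl9 (r = 0.979), Tram1 (0.977), Ssh3 (0.974), Trabd (0.974) and Qpctl (0.97). Their group means spanned far less, 1.43-fold for Osbpl9, and the 8 points share libraries and depth. Each of these genes was lowest in the 60-day KO females, as Pfkfb1 was, so that group weighs heavily in each r. Osbpl9 was at 57.8 CPM there and at 73.5 to 82.9 CPM elsewhere, and Pfkfb1 at 2.06 CPM and 13.1 to 45.8 CPM. Of the other 8 genes Slc2a2 (0.781), G6pc (0.758) and Pck1 (0.649) had the highest values and Gpt the lowest (-0.336). Within groups, over 32 libraries after subtracting each group's mean, Pfkfb1 and Pck1 had r = -0.115. The genes most like Pck1 over the group means were Egfr (0.959), RGD1311783 (0.958), Dnaja3 (0.955), Pole3 (0.954) and Rac1 (0.951).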

How the data were processed

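Whole liver RNA of 32 rats was sequenced from poly(A) libraries of a stranded kit, per the labels' protocols. The authors deposited raw counts of reads per gene and a table of log2 CPM for 11344 genes, which equals values recomputed from the counts to 5.0e-09 and carries no scaling between libraries. STAR, Cufflinks, limma and the assembly Rnor_5.0 are named per the submitters' processing notes; roles, versions and strand of counting were not given in the sources used here. No-feature lines (18.05% to 21.18% of reads) and ambiguous reads were left out. Counts were fitted with edgeR 4.0.16 (R 4.3.3; TMM scaling, filter at a count of 10, quasi-likelihood test, 8 group means, 24 residual degrees of freedom, 18 contrasts of 11002 genes, Benjamini-Hochberg threshold 0.05), and the fit was tested on simulated data. That simulation gave each gene the same spread in all groups and held no library that stands apart, so it did not test those features of the data. Errors of log2 values are SE; intervals are 95%. Groups came from sex, genotype and age in the labels; each library is taken as 1 rat. Alternatives were 2 other scalings, no filter, DESeq2 1.42.0, limma 3.58.1 on counts and on the deposited log2 values, smaller fits, the title number as a covariate, a clock score (chosen after seeing the data) and leaving out each library. The title number follows the hyphen in the 30-day titles only, and its meaning was not given in the sources used here. It was 2 in each 30-day KO female and 1 in replicates 1, 2 and 3 of the WT females, so it nearly coincided with genotype there. Between these groups 8 of all genes were called with it and 50 in the fit to the same 16 libraries without it. Of the 9 genes 0 were called in either.

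The 9 genes and the lists were chosen with earlier results of these data known. Beside the 9 genes, Serpina6 and their isozyme partners, genes named from a list were those called, at most 4 per list and comparison by smallest adjusted p. Some genes of these lists, and the count over genes induced by fasting, are not reported here. Likeness genes were the 5 with the highest Pearson r. Sequences are from RefSeq (GRCr8); protein sequences were not used here.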

Additional observations from a re-analysis of the deposited data

Results flagged for a closer look

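For Pfkfb1, 3 interaction tests found effects that differ between groups (edgeR quasi-likelihood test, adjusted over 11002 genes). The knockout effect at 60 days was 2.62 ± 0.35 log2 higher in males than in females (adjusted p = 0.000371). The knockout effect in females was -2.81 ± 0.34 log2 at 60 against 30 days (adjusted p = 8.2e-05). The sex difference in KO rats was 3.04 ± 0.34 log2 larger at 60 than at 30 days (adjusted p = 1.23e-06). These 3 terms share the 60-day KO females, the group at 0.861 to 2.94 CPM.

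Of 72 groups of 4 libraries examined for the 9 genes, 2 held a library far from the other 3; chance gives about 1 in 20. Got1 was at 58.2 CPM in replicate 1 of the 30-day KO females, against 89.5 to 94.4 CPM in the others, a gap of 0.864 of the whole range. Slc2a2 was at 354.6 CPM in replicate 1 of the 30-day KO males, against 400.7 to 409.7 CPM in the others, a gap of 0.837 of the range.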

How the results depend on the processing

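Pfkfb1 in 60-day females stayed past the threshold under 9 of 9 alternatives (-2.99 to -2.66 log2) and on leaving out each of the 8 libraries (-2.90 to -2.40); Pck1 did so in 8 of 9 and 8 of 8, and Gpt in 8 of 9 and 7 of 8. The count of the 9 genes called in that comparison was 2 to 3 under the alternatives and 2 to 4 leaving out 1 library.

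Counts moved as follows; the cause was not tested. Between the sexes at 30 days 0 were called in WT, and 1 with DESeq2, limma-voom, the fit to 16 libraries, the title number as a covariate or the fit to the groups compared. In KO rats 0 became 1 with upper-quartile scaling, limma-voom or 16 libraries and 2 with DESeq2. DESeq2 gave 2 for KO against WT in 60-day males (from 0), 3 for age by genotype in females (from 1), 1 for sex by age in WT (from 0; also 1 with the clock score) and 2 for sex by age in KO (from 1). For 60 against 30 days, KO females had 1, and 3 with the deposited log2 values or 2 in the fit to the groups compared. KO males had 3, and 1 with upper-quartile scaling, the deposited log2 values or the clock score. There Fbp1 turned from 0.18 to -0.0088 log2 (adjusted p = 0.928) with the deposited log2 values, which shift the median of all genes between ages by -0.116 to -0.214. Smaller moves were 3 to 4 for the sexes in WT at 60 days (Pklr, with DESeq2, limma-voom, the deposited values or the clock score), 4 to 5 in KO (G6pc, 16 libraries), and 2 to 3 for age in WT females (DESeq2, the deposited values, the groups compared) and WT males (upper-quartile scaling, limma-voom, the groups compared, the clock score); in WT males the deposited values kept 2, with Pfkfb1 in place of Fbp1. In KO males age gave 2 without the filter and 4 in the groups compared.

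Leaving out 1 library, counts ran from 1 to 3 for 60 against 30 days in KO males, 1 to 2 for sex by genotype at 60 days, for age by genotype in females and for sex by age in KO, and 0 to 2 for sex by age in WT. Without replicate 1 of the 60-day WT females Pklr passed in 6 comparisons, among them sex by genotype at 60 days (-1.23 ± 0.23) and sex by age in WT (1.05 ± 0.23). No paired analysis was possible because animals of different groups are tied together by no label and replicate numbers follow accession order. All genes called between KO and WT in 60-day females numbered 745, 56 to 928 under the alternatives and 399 without replicate 1 of the KO females. At 14 to 44 reads per library, the level of Pfkfb1 in 60-day KO females is the least precise of its 8 groups.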
